A study of Mus musculus with 14 samples.

Results

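The genes described here encode 9 proteins that bring insulin granules to the β-cell membrane and fuse them with it: Sytl4, Rab27a, Rab3a, Rims2, Unc13a, Stx1a, Snap25, Vamp2 and Syt7. They were chosen by name, after Sytl4 was seen to be lower in these islets, to ask whether its partners were lower too. All 9 had a row among the 20738 gene rows of the array. Because its fall chose the set, Sytl4 is given as a description with no test. The 8 other members were tested in 1 fit over all rows, and a gene passed where its adjusted p was under 0.05.

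Expression was read from Affymetrix Mouse Gene 1.0 ST arrays of isolated pancreatic islets from mice 11 weeks old, of a C57BL/6 and NMRI (1:1) strain mix. The first group was 5 arrays of diabetic IKK2-CApdx-1 mice, called IKK2-CA below, in which the Pdx-1-tTA allele drives constitutively active IKK2 in β-cells. The second was 4 arrays of Pdx-1+/- mice, in which the same Pdx-1-tTA allele leaves the animals haploinsufficient for Pdx-1 and no active IKK2 is named. The third was 5 arrays of control mice, whose genotype the labels do not describe further. IKK2-CA mice thus carry both the driver and the transgene and were diabetic, so the driver, IKK2 activity and diabetes cannot be told apart in IKK2-CA against control, nor IKK2 activity and diabetes in IKK2-CA against Pdx-1+/-. No label ties an array to a mouse, so p-values measure the spread between arrays, which may be technical.

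Insulin is stored in dense-core granules that must dock at the plasma membrane, be primed and then fuse when calcium enters the cell. Rab27a and Rab3a are small GTPases on the granule surface, and Sytl4, also called granuphilin, is the Rab effector that links such granules to syntaxin at the membrane. Fusion is driven by the SNARE complex of Stx1a, Snap25 and Vamp2, prepared by the priming factor Unc13a and the scaffold Rims2, and triggered by calcium sensors such as Syt7.

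The promoters of the 3 members that the results turn on, Sytl4, Rab27a and Rab3a, are shown because these genes were lower together in IKK2-CA islets. Each is the 250 bases before the transcription start, 5′ to 3′ on the gene's strand, from RefSeq on GRCm38.p6. Sytl4 lies at chrX:133981813-133982062 on the minus strand, Rab27a at chr9:73044560-73044809 and Rab3a at chr8:70754453-70754702, both on the plus strand. Capitals mark a GC box (GGGCGG or its reverse complement).
Sytl4: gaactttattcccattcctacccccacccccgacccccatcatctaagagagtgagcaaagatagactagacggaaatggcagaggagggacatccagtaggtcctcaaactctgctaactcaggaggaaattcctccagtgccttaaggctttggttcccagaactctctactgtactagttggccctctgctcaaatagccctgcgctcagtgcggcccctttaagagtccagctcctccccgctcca
Rab27a: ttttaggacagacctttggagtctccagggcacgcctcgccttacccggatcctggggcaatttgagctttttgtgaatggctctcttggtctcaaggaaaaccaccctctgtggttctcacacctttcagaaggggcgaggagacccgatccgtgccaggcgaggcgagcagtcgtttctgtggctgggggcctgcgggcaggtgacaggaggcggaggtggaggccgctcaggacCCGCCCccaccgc
Rab3a: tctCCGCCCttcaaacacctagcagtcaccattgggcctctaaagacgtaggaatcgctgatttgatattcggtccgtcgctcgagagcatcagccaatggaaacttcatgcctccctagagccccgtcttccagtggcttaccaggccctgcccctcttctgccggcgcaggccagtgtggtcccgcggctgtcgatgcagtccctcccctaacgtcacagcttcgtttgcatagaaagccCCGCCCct
Both strands were searched for exact matches to the homeodomain core TAATTA, the κB consensus GGGRNWYYCC, the cAMP response element TGACGTCA and the GC box GGGCGG. The E box CAGCTG and the TATA box TATAAA were searched for in the same way. In the κB consensus R is A or G, W is A or T, Y is C or T and N is any base. No 2 matches overlapped in these windows. The Sytl4 window held no exact match to any of the 6, and near matches were not searched for. The Rab27a window held 1 GC box at −13 to −8 and the Rab3a window 2, at −247 to −242 and −8 to −3, counted from the start. The second RefSeq starts of Rab27a and Rab3a each held 1 E box and are not printed. Of 32817 promoter windows of this length, 32.7% held a GC box, 13% the E box, 12.4% the TATA box, 4.85% TAATTA, 3.9% a κB match and 1.55% TGACGTCA. GC content was 53.2% for Sytl4, 62% for Rab27a and 58.8% for Rab3a, against a median of 52.4% over all windows. The promoter table held 5 of the 9 members, and the other 2 of those, Stx1a and Unc13a, held 1 and 2 GC boxes, with an E box in Stx1a as well.

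Values are log2 RMA signals, so a difference of 1 is a doubling, and they compare arrays for a gene, not genes with each other. Islet hormones marked the tissue as labelled, with Ins2 at 12.31 to 12.62 on IKK2-CA arrays, 12.60 to 12.64 on Pdx-1+/- arrays and 12.60 to 12.68 on control arrays. Pdx1 read 6.68, 6.86, 6.39, 7.44 and 5.97 on the IKK2-CA arrays, 7.32, 7.10, 7.27 and 6.85 on the Pdx-1+/- arrays, and 7.98, 7.67, 8.62, 8.46 and 8.42 on the control arrays. Ikbkb, which encodes IKK2, read 7.42 to 8.03 on IKK2-CA arrays, 7.18 to 7.62 on Pdx-1+/- arrays and 7.30 to 7.52 on control arrays. Which allele or transgene the Pdx1 and Ikbkb probes see was not known here, so these 2 genes check the labels only in part. Gcg, glucagon of α-cells, read 12.88 to 13.36 over all arrays. Exocrine tissue was present on all arrays (Cpa1, an acinar enzyme, 13.62 to 13.71). Cpa1 lay close to the highest value of the table (13.96), so its small spread does not show equal acinar content. Means of a marker list are given as the deviation from the mean of the 14 arrays. By this measure 12 intestinal markers set Pdx-1+/- array 4 (2.60) and control array 3 (1.26) apart, and 9 adipocyte markers IKK2-CA array 5 (2.51).

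Sytl4 was far lower in both mutant groups. The means of its partners were lower by smaller amounts, and none of the partners passed in Pdx-1+/- against control. Sytl4 read 7.04, 7.21, 6.71, 7.73 and 6.80 on the IKK2-CA arrays, 7.71, 7.46, 7.71 and 7.06 on the Pdx-1+/- arrays, and 9.03, 8.64, 9.42, 9.37 and 9.25 on the control arrays. Every array of both mutant groups lay below every control array, while IKK2-CA and Pdx-1+/- arrays overlapped. Of all rows, 2.27% showed such a separation downward in IKK2-CA and 1.36% in Pdx-1+/- against control islets. Sytl4 was chosen for its fall, so these shares are background only. Its mean was 7.10 ± 0.40 in IKK2-CA islets (SD, n = 5), 7.49 ± 0.31 in Pdx-1+/- islets (SD, n = 4) and 9.14 ± 0.32 in control islets (SD, n = 5). That is 4.12-fold lower in IKK2-CA than in control islets (log2 −2.04, SE 0.20) and 3.15-fold lower in Pdx-1+/- than in control islets (log2 −1.66, SE 0.21). IKK2-CA and Pdx-1+/- islets differed by log2 −0.39 (SE 0.21). Among the 20738 rows the Sytl4 difference was the 7th lowest in IKK2-CA against control and the 8th lowest in Pdx-1+/- against control. These comparisons share the control arrays. Islets are mixtures, and fewer β-cells or less RNA per β-cell cannot be told apart in such samples.

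**Figure D1:**
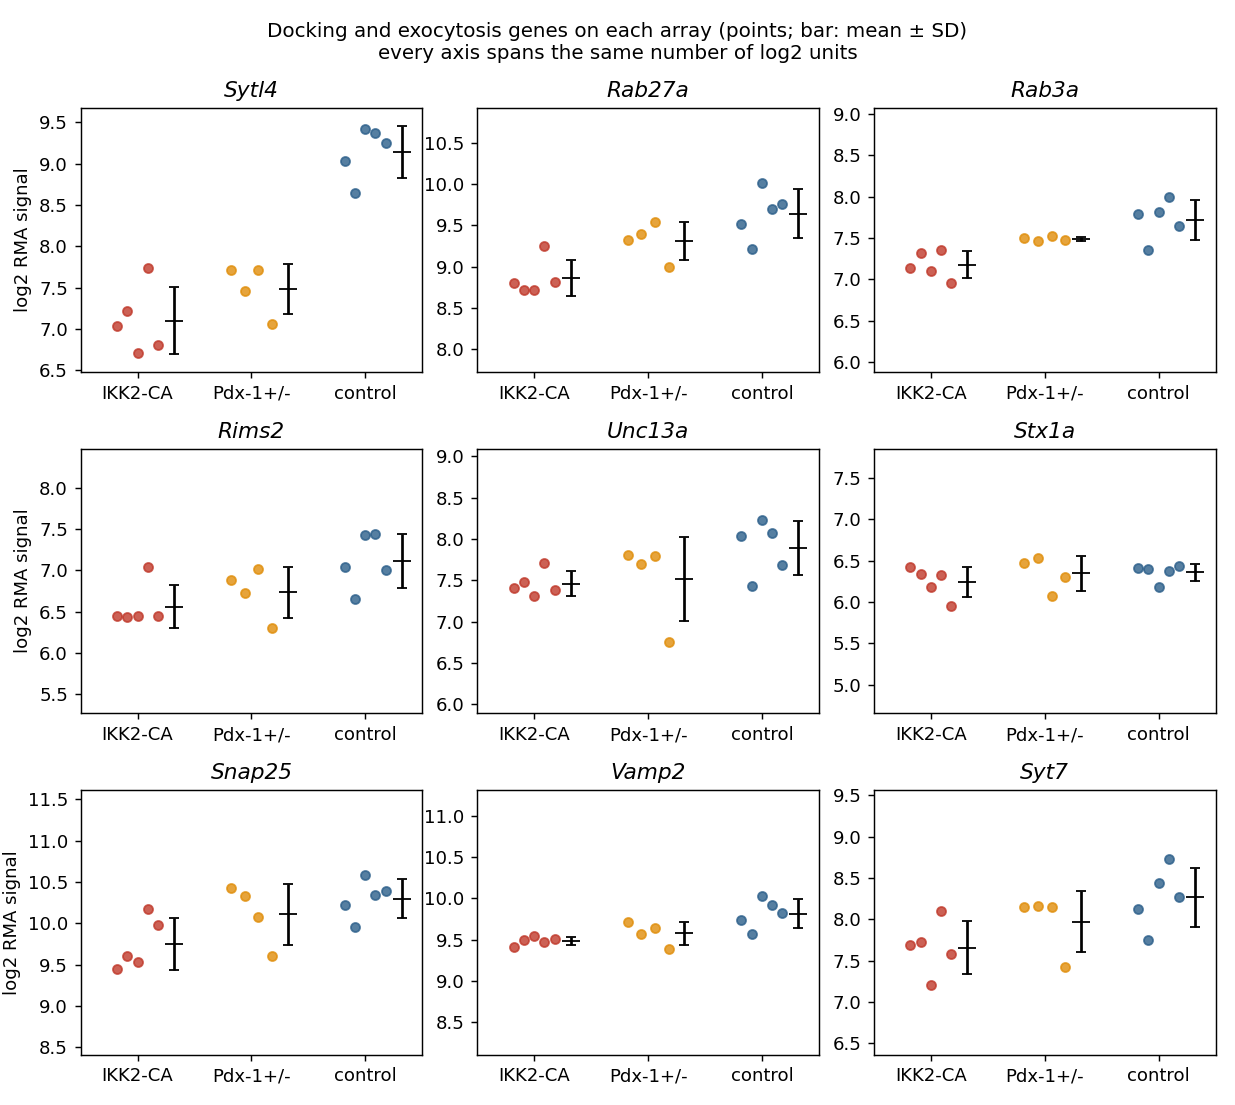
The log2 RMA signal (y axis) of each member on every array (points) in IKK2-CA, Pdx-1+/- and control islets (x axis), with the mean ± SD of each group as a bar. Every panel spans the same number of log2 units. Sytl4 separates both mutant groups from control islets, at most 7.73 against at least 8.64, whereas the groups of most other members overlap.

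The Rab GTPases that Sytl4 binds were the 2 of 8 tested partners that passed, both lower, in IKK2-CA against control islets. Syt7, Snap25 and Rims2 differed by at least as much as Rab3a without passing. Over all rows of the array, 1.49% fell in this comparison (310 rows) and 2.18% changed in either direction. Rab27a, which recruits Sytl4 to granules, read 8.80, 8.72, 8.72, 9.25 and 8.81 on the IKK2-CA arrays, 9.32, 9.39, 9.54 and 9.0 on the Pdx-1+/- arrays, and 9.52, 9.21, 10.01, 9.70 and 9.75 on the control arrays. IKK2-CA arrays 1, 2, 3 and 5 lay below every other array of the 3 groups, and IKK2-CA array 4 lay above the lowest control array. The mean of Rab27a was lower by a factor of 1.71 (log2 −0.78, SE 0.15, limma adjusted p = 0.0167), with 8.86 ± 0.22 in IKK2-CA (SD, n = 5) and 9.64 ± 0.30 in control islets (SD, n = 5). The call was lost when control array 3 or 4 was left out (adjusted p = 0.0543 and 0.0523). Calls over all rows also dropped there, from 453 to 120 and 156. The Rab27a call held with Pdx-1+/- array 4 and IKK2-CA array 5 both left out (log2 −0.76, adjusted p = 0.0209). It was lost when control array 3 was left out as well (log2 −0.67, adjusted p = 0.0508), where 180 of all rows passed.

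Rab3a, the other granule Rab that Sytl4 can bind, read 7.14, 7.32, 7.10, 7.36 and 6.96 on the IKK2-CA arrays, 7.50, 7.46, 7.52 and 7.48 on the Pdx-1+/- arrays, and 7.79, 7.36, 7.82, 8.0 and 7.65 on the control arrays. IKK2-CA arrays reached from below all others up to 7.36, the level of the lowest control array, and all 4 Pdx-1+/- arrays lay within a narrow band above every IKK2-CA array. Rab3a was 1.46-fold lower in IKK2-CA than in control islets (log2 −0.55, SE 0.11, limma adjusted p = 0.0203), with means of 7.18 ± 0.16 in IKK2-CA and 7.72 ± 0.24 in control islets (SD, n = 5 each). Leaving out IKK2-CA array 3 (adjusted p = 0.0565) or control array 1 (0.0524), 3 (0.0705) or 4 (0.0597) ended this call, as did fitting IKK2-CA and control arrays alone (0.0583). Once Pdx-1+/- array 4 and IKK2-CA array 5 were removed it held (log2 −0.49, adjusted p = 0.04). Without control array 3 too it did not (log2 −0.47, adjusted p = 0.113). In each of these fits that ended the call, calls over all rows also dropped, from 453 to between 120 and 238.

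Rab27a also works in the lytic granules of leukocytes, so leukocyte markers are set beside it. The mean of 12 macrophage and dendritic cell markers spanned −0.29 to 1.00 on IKK2-CA arrays, −0.27 to 0.07 on Pdx-1+/- arrays and −0.53 to 0.05 on control arrays. That of 11 T, NK and B cell markers spanned −0.40 to 1.11 on IKK2-CA arrays, −0.49 to 0.09 on Pdx-1+/- arrays and −0.39 to 0.01 on control arrays. Both lists were highest on IKK2-CA array 5, where Rab27a read 8.81. The part of leukocytes in the Rab27a values was not tested.

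The priming and scaffold genes Rims2 and Unc13a were lower on average in IKK2-CA islets but did not pass. Rims2, a scaffold that binds granule Rab3 and gathers granules near calcium channels, read 6.45, 6.43, 6.44, 7.04 and 6.45 on the IKK2-CA arrays, 6.88, 6.72, 7.02 and 6.30 on the Pdx-1+/- arrays, and 7.04, 6.65, 7.43, 7.43 and 7.01 on the control arrays. IKK2-CA arrays 1, 2, 3 and 5 lay within 0.02 of each other and below every control array, and IKK2-CA array 4 lay among the controls. Rims2 differed from control islets by log2 −0.55 (SE 0.17, adjusted p = 0.121). It passed when IKK2-CA array 4 was left out (log2 −0.67, adjusted p = 0.0347) and when control array 2 was (log2 −0.67, adjusted p = 0.048). Over all rows 990 and 633 passed in those fits, against 453 with all arrays.

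Unc13a, or Munc13-1, opens syntaxin so that SNAREs can assemble. It read 7.40, 7.49, 7.32, 7.71 and 7.39 on the IKK2-CA arrays, 7.80, 7.70, 7.80 and 6.76 on the Pdx-1+/- arrays, and 8.04, 7.44, 8.23, 8.07 and 7.69 on the control arrays. Pdx-1+/- array 4 was the lowest of all, and IKK2-CA arrays overlapped control array 2 and control array 5. The difference from control islets was log2 −0.43 (SE 0.19, adjusted p = 0.296). The array holds 2 further, dimmer rows of Unc13a. Their means were also lower in IKK2-CA than in control islets, by less, but neither was lower in Pdx-1+/- than in control islets. The first averaged 5.85 ± 0.14 in IKK2-CA (SD, n = 5), 6.01 ± 0.16 in Pdx-1+/- (SD, n = 4) and 5.91 ± 0.14 in control islets (SD, n = 5). The second averaged 5.52 ± 0.17 in IKK2-CA (SD, n = 5), 5.81 ± 0.08 in Pdx-1+/- (SD, n = 4) and 5.80 ± 0.07 in control islets (SD, n = 5).

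None of the 3 SNARE genes passed (limma). Snap25 and Vamp2 had an unadjusted p under 0.05 in IKK2-CA against control, as did 3231 of the 20738 rows. Stx1a, the syntaxin of the plasma membrane, read 6.42, 6.34, 6.18, 6.33 and 5.95 on the IKK2-CA arrays, 6.48, 6.54, 6.07 and 6.30 on the Pdx-1+/- arrays, and 6.41, 6.40, 6.19, 6.37 and 6.44 on the control arrays. Its groups overlapped throughout, and it differed from control islets by log2 −0.12 in IKK2-CA islets (SE 0.10, 95% interval −0.34 to 0.11, adjusted p = 0.684) and by −0.01 in Pdx-1+/- islets (SE 0.11, 95% interval −0.25 to 0.22, adjusted p = 0.999). A missed threshold does not show that Stx1a was equal between groups. Its row was also dim, at 5.95 to 6.54 over all arrays, where the median of all row means was 6.51.

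Snap25, the membrane-anchored SNARE that pairs with Stx1a, read 9.45, 9.61, 9.54, 10.17 and 9.98 on the IKK2-CA arrays, 10.43, 10.33, 10.08 and 9.6 on the Pdx-1+/- arrays, and 10.22, 9.96, 10.59, 10.34 and 10.39 on the control arrays. IKK2-CA arrays 1, 2 and 3 lay below every control array, and arrays 4 and 5 lay above the lowest one. The difference was log2 −0.55 (SE 0.17, adjusted p = 0.122), and it passed without IKK2-CA array 4 (log2 −0.66, adjusted p = 0.0441). In that fit 990 of all rows passed, against 453 with all arrays.

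Vamp2 is the SNARE on the granule itself. Its row also carries the symbol Ubr3 in the array annotation, although the RefSeq transcript listed for it belongs to Vamp2. It read 9.41, 9.49, 9.54, 9.48 and 9.51 on the IKK2-CA arrays, 9.71, 9.56, 9.64 and 9.39 on the Pdx-1+/- arrays, and 9.74, 9.56, 10.03, 9.91 and 9.83 on the control arrays. All 5 IKK2-CA arrays lay below all 5 control arrays by a small margin, a separation that 2.27% of all rows showed in this direction. Vamp2 was at log2 −0.33 against control islets (SE 0.09, adjusted p = 0.0692). It passed without Pdx-1+/- array 4 (adjusted p = 0.0485) and without control array 2 (log2 −0.39, adjusted p = 0.0213). Calls over all rows also rose in those fits, from 453 to 616 and 633.

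Syt7, a calcium sensor of insulin granule fusion with high calcium affinity, read 7.69, 7.72, 7.20, 8.09 and 7.58 on the IKK2-CA arrays, 8.15, 8.16, 8.15 and 7.42 on the Pdx-1+/- arrays, and 8.13, 7.75, 8.44, 8.73 and 8.27 on the control arrays. IKK2-CA array 3 was the lowest of all and IKK2-CA array 4 lay within the control range, as did 3 of the 4 Pdx-1+/- arrays. Syt7 was at log2 −0.61 in IKK2-CA against control islets (SE 0.20, adjusted p = 0.136).

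All 8 partners were below 0 in IKK2-CA against control, with a median log2 difference of −0.55, where the median of all rows was −0.01 and 53.4% of rows lay below 0. The members of the list were chosen together, so this count is a description. Of the 8, 7 had an unadjusted p under 0.05 (limma) and 2 passed. Over all 20738 rows, 3231 had an unadjusted p under 0.05 in this comparison.

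**Figure D2:**
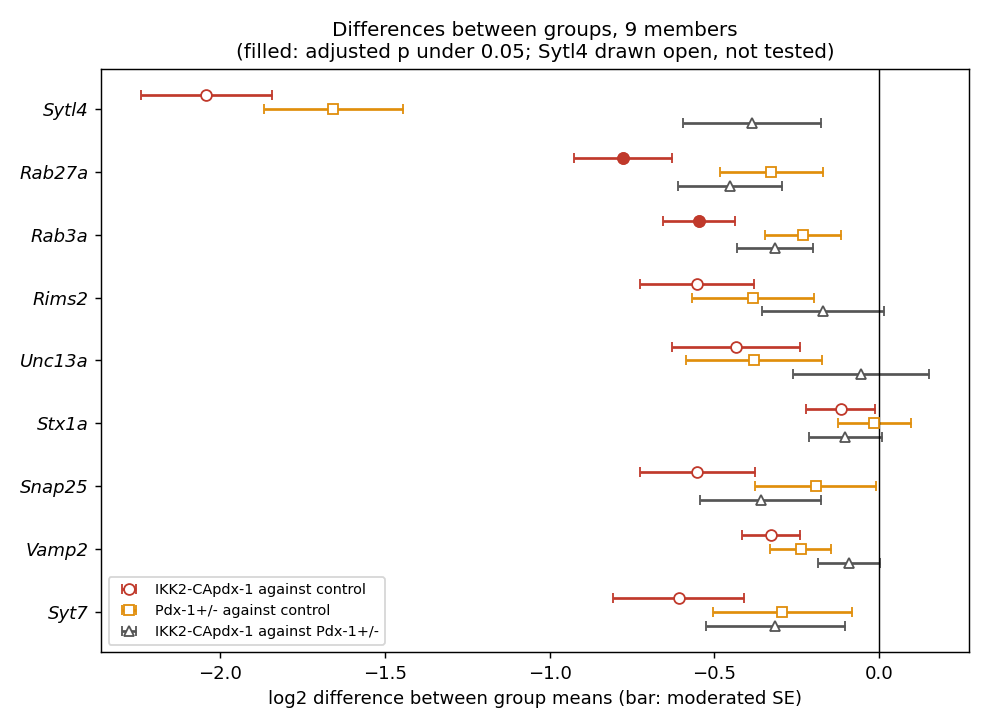
Log2 differences between group means (x axis, bars are the moderated SE) for the 9 members (rows) in the 3 comparisons. Filled symbols had an adjusted p under 0.05, which are Rab27a (−0.78) and Rab3a (−0.55) in IKK2-CA against control, and Sytl4 is drawn open because it was not tested.

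In Pdx-1+/- islets, which carry the driver alone, none of the 8 partners passed. In Pdx-1+/- against control islets the calls over all rows were 0.0868% in either direction, and all 18 were lower. The 8 partners lay between log2 −0.38 and −0.01 with a median of −0.27, where the median of all rows was −0.00. By limma 0 passed the threshold and 1, Vamp2, had an unadjusted p under 0.05, against 968 of all 20738 rows. No member lay above all control arrays, as 0.492% of rows did. Rims2 (log2 −0.38, SE 0.18), Unc13a (−0.38, SE 0.21) and Rab27a (−0.33, SE 0.16) were the lowest, each with adjusted p = 0.999. Syt7 (−0.29, SE 0.21), Vamp2 (−0.24, SE 0.09), Rab3a (−0.23, SE 0.12) and Snap25 (−0.19, SE 0.18) followed. Array 4 of this group, which carried the intestinal genes, was the lowest of its group for Sytl4, Syt7, Snap25, Vamp2, Rab27a, Unc13a and Rims2. Leaving it and IKK2-CA array 5 out put Sytl4 at log2 −1.52, Rims2 at −0.24, Unc13a at −0.13, Syt7 at −0.11 and Snap25 at −0.02.

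IKK2-CA against Pdx-1+/- sets active IKK2 and diabetes against the driver alone. None of the 8 partners passed, and over all rows 0.0964% changed and 0% were called lower. Rab27a (log2 −0.45, SE 0.16, adjusted p = 0.51) and Rab3a (log2 −0.32, SE 0.12, adjusted p = 0.542) had an unadjusted p under 0.05 (limma). So did 1451 of all 20738 rows. For Rab3a all 5 IKK2-CA arrays (6.96 to 7.36) lay below all 4 Pdx-1+/- arrays (7.46 to 7.52), a separation in this direction that 0.699% of all rows showed. Snap25 was at log2 −0.36 (SE 0.18), Syt7 at −0.31 (SE 0.21), Rims2 at −0.17 (SE 0.18), Stx1a at −0.10 (SE 0.11), Vamp2 at −0.09 (SE 0.09) and Unc13a at −0.05 (SE 0.21). The sign for Unc13a turned when Pdx-1+/- array 1, 2 or 3 was left out.

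Most members were high or low on the same arrays as the β-cell markers. The mean of 15 measured β-cell markers spanned −0.81 to 0.08 on IKK2-CA arrays, −0.42 to 0.06 on Pdx-1+/- arrays and 0.07 to 0.82 on control arrays. The markers were Ins2, Pdx1, Mafa, Nkx6-1, Slc2a2, Ucn3, G6pc2, Slc30a8, Iapp, Glp1r, Pcsk1, Nkx2-2, Neurod1, Ero1lb and Npy. Pdx1 is on the list and both mutant groups carry the Pdx-1-tTA allele, so this mean does not measure β-cell number alone. Of the 15 markers 7 fell in IKK2-CA against control (median log2 −0.88, all 15 below 0), where 1.49% of all rows fell. In Pdx-1+/- against control 0 passed by limma (median −0.61). There 10 had an unadjusted p under 0.05, against 968 of all 20738 rows. Single markers ran from log2 −2.07 to −0.12 in IKK2-CA and from −1.43 to −0.02 in Pdx-1+/- islets, both against control. IKK2-CA array 4 had the highest Sytl4 (7.73), Syt7 (8.09), Snap25 (10.17), Rab3a (7.36), Rab27a (9.25), Unc13a (7.71) and Rims2 (7.04) of its group and also its highest β-cell marker mean. Pdx-1+/- array 4 and control array 2 were lowest in their groups for both the partner mean (−0.36 and −0.10) and the β-cell marker mean (−0.42 and 0.07). Control array 2 lay below 3 of the 4 Pdx-1+/- arrays in its partner mean, while its Sytl4 (8.64) stayed above all of them. Markers of α-cells, which use the same exocytosis genes, spanned −0.26 to 0.03 on IKK2-CA arrays, −0.13 to 0.00 on Pdx-1+/- arrays and 0.04 to 0.29 on control arrays over 8 genes. Of these 8, 1 fell in IKK2-CA against control, where 1.49% of all rows fell. It was the glucagon receptor Gcgr (log2 −1.0, SE 0.14, limma adjusted p = 0.00395). Which islet cells gave the Gcgr signal was not known here, so its fall is not read as one of α-cells. No other gene of the 8 passed, glucagon (Gcg) included. The mean of 5 δ-cell markers spanned −0.25 to 0.17 on IKK2-CA arrays, −0.27 to 0.01 on Pdx-1+/- arrays and −0.18 to 0.37 on control arrays. Of these 5, 2 fell in IKK2-CA against control, where 1.49% of all rows fell. They were the hormone somatostatin Sst (log2 −0.67, SE 0.15, limma adjusted p = 0.0367) and the retinol carrier Rbp4 (log2 −0.76, SE 0.18, limma adjusted p = 0.0397). Markers of neurons and Schwann cells, which also express such genes, spanned −0.24 to 0.03 on IKK2-CA arrays, −0.10 to 0.34 on Pdx-1+/- arrays and −0.08 to 0.13 on control arrays over 6 genes. The part of cell numbers in these differences was not tested.

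**Figure D3:**
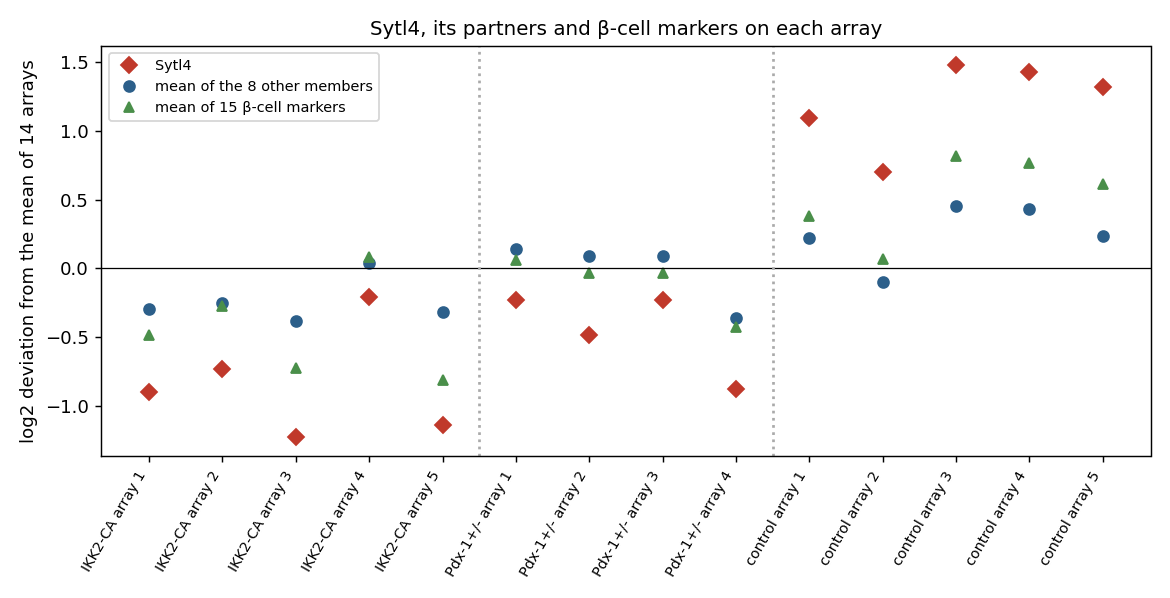
Deviation in log2 units from the mean of the 14 arrays (y axis) for Sytl4, for the mean of the 8 other members and for the mean of 15 β-cell markers, on each array (x axis) of IKK2-CA, Pdx-1+/- and control islets. Sytl4 lies below 0 on all 9 mutant arrays and at 0.70 or more on every control array, and the partner mean is above 0 on 4 mutant arrays and below 0 on 1 control array.

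Across the 14 arrays the pattern of Sytl4 was shared by most partners, and least by Stx1a. Pearson's r with Sytl4 was 0.88 for Rab27a, 0.86 for Vamp2, 0.85 for Rab3a, 0.84 for Rims2, 0.79 for Syt7, 0.73 for Snap25, 0.72 for Unc13a and 0.28 for Stx1a. These values describe 14 arrays in 3 groups that differ in Sytl4, and share each array's tissue makeup. With group means removed it was highest for Syt7 (0.91), Rims2 (0.90) and Rab27a (0.87), lay between 0.62 and 0.77 for Vamp2, Snap25, Rab3a and Unc13a, and was 0.14 for Stx1a. The median over all rows was −0.02, and −0.08 with group means removed. The Stx1a row was dim and varied little over the arrays, so its low r does not show that its pattern differs. The 5 genes whose pattern was most like that of Sytl4 were Tmem215 (r = 0.98), Fam151a (0.98), Rasgrf1 (0.97), Itpkb (0.97) and Spock1 (0.97). Rasgrf1 activates Ras in response to calcium and Itpkb phosphorylates inositol trisphosphate. Their likeness to a gene chosen for its fall largely fixes how their groups lie, and Rasgrf1 reached at most 6.64 on IKK2-CA arrays and 6.50 on Pdx-1+/- arrays, against at least 6.93 on control arrays.

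Beyond the members, 114 other genes of docking and exocytosis were measured, from 118 listed in 4 groups by role. In IKK2-CA against control 7 fell and 1 rose, against 1.49% and 0.69% of all rows, and the median was −0.11. Rab GTPases, their effectors and active zone scaffolds held 5 of the 7 falls, among 38 measured. Mlph, melanophilin, a Rab27a effector that is best known from pigment granules, was 1.93-fold lower (log2 −0.95, SE 0.11, adjusted p = 0.000975). It averaged 6.79 ± 0.18 in IKK2-CA (SD, n = 5), 6.81 ± 0.20 in Pdx-1+/- (SD, n = 4) and 7.74 ± 0.18 in control islets (SD, n = 5). Neither mutant group overlapped the controls, a downward separation that 2.27% of all rows showed in IKK2-CA and 1.36% in Pdx-1+/- islets. Mlph was named for its small p, so its separation is a description. Rims3, a short relative of Rims2, was 2.29-fold lower (log2 −1.19, SE 0.16, adjusted p = 0.00298), with 7.17 ± 0.27 in IKK2-CA and 8.37 ± 0.34 in control islets (SD, n = 5 each). Both calls held with any 1 array left out.

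The other falls were less stable. Rab3b, a close relative of Rab3a, was at log2 −0.81 (SE 0.17, adjusted p = 0.0231), and Pclo, the active zone scaffold piccolo, at −0.94 (SE 0.21, adjusted p = 0.0335). Rab37, named after its values were seen, was at log2 −0.78 (SE 0.19, adjusted p = 0.0452). Among 32 genes of priming and calcium sensing, Baiap3, a relative of Munc13 (log2 −1.14, SE 0.23, adjusted p = 0.0216), and Syt9, a calcium sensor of insulin release (log2 −0.40, SE 0.09, adjusted p = 0.0415), fell. With 1 array left out, Baiap3 was called in 10 of 14 fits, Rab3b in 8, Pclo in 5, Syt9 in 4 and Rab37 in 3. All 5 of these calls were lost without control array 3 or without control array 4. The highest adjusted p there was 0.142, for Rab37 without control array 3. Calls over all rows dropped in these fits too, from 453 to 120 and 156. Syt13 (log2 −0.88, SE 0.23, adjusted p = 0.0606) and Syt14 (log2 −0.87, SE 0.23, adjusted p = 0.0652) did not pass. None of 24 further SNARE, SM protein and SNARE recycling genes passed by limma (median log2 −0.03). Of these 24, 5 had an unadjusted p under 0.05, against 3231 of all 20738 rows. Snap47 (−0.31, SE 0.10) and Stx3 (−0.20, SE 0.07) had the smallest p among the 24, and they did not pass (adjusted p = 0.114 and 0.164).

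The 1 gene that rose was Rala, a small GTPase that works with the exocyst in tethering granules. Rala read 9.20, 9.15, 9.49, 9.19 and 9.25 on the IKK2-CA arrays, 8.93, 8.82, 9.0 and 9.08 on the Pdx-1+/- arrays, and 9.01, 8.83, 8.79, 8.82 and 8.89 on the control arrays. Every IKK2-CA array lay above every array of the other groups, which 1.87% of all rows showed against control and 1.74% against Pdx-1+/- arrays. It was at log2 0.39 against control (SE 0.08, adjusted p = 0.0216) and at 0.30 against Pdx-1+/- islets (SE 0.08, adjusted p = 0.324). The call against control was lost without control array 3, 4 or 5 (adjusted p = 0.0743, 0.0659 and 0.0523). Over all rows 120, 156 and 189 passed in those fits, against 453 with all arrays. Syn1, synapsin I, which clusters vesicles, was at log2 −0.61 in IKK2-CA (SE 0.15, adjusted p = 0.0512) and at −0.63 in Pdx-1+/- islets (SE 0.16, adjusted p = 0.306), both against control.

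Over all rows 0.0868% passed in Pdx-1+/- against control. Mlph was the 1 of the 114 genes that passed (log2 −0.93, SE 0.12, limma adjusted p = 0.00384), and its call held with any 1 array left out. Rims3 (log2 −0.84, SE 0.17, adjusted p = 0.118) and Doc2b, a calcium-binding priming protein (log2 −0.54, SE 0.13, adjusted p = 0.257), did not. In IKK2-CA against Pdx-1+/- none passed by limma (9 with an unadjusted p under 0.05, against 1451 of all 20738 rows). Mlph was at log2 −0.02 there (SE 0.12).

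The measured relatives of Sytl4 and Rab27a by name, picked after their values were seen, did not pass in any comparison. Against control islets the other Sytl genes lay at log2 −0.01 for Sytl1, 0.07 for Sytl2, −0.24 for Sytl3 and −0.41 for Sytl5 in IKK2-CA islets (SE 0.12, 0.12, 0.28 and 0.24), and between −0.04 and 0.13 in Pdx-1+/- islets. Rab27b, the other Rab27, was at log2 0.16 in IKK2-CA (SE 0.13, adjusted p = 0.652) and 0.35 in Pdx-1+/- islets (SE 0.14, adjusted p = 0.999).

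**Figure D4:**
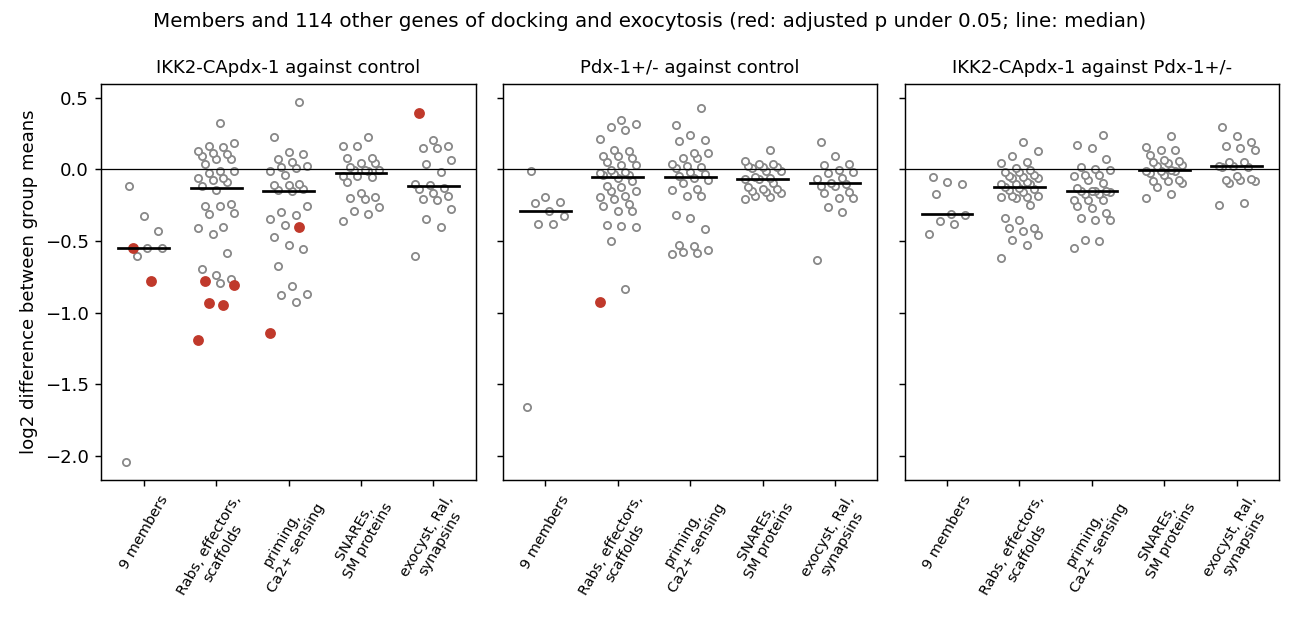
Log2 difference between group means (y axis) of each member and of 114 other docking and exocytosis genes, sorted by role (x axis), in the 3 comparisons (panels). Red points had an adjusted p under 0.05 and lines are medians. Medians of the 4 further groups lie between −0.15 and 0.02, above that of the members in each panel, and Sytl4, which was not tested, lies lowest at −2.04 and −1.66 in the first panels.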

How the data were processed

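The deposited table held log2 signals of 35556 transcript clusters on 14 arrays. Per the series' design text the authors normalized them by RMA, and per the submitters' processing notes they used Affymetrix Expression Console, with no version named. The log2 scale was read from the values, since no source states it. GEO's platform annotation named 23410 clusters, 21789 with 1 symbol and 1621 with several, and left 12146 unnamed. For each distinct annotation the brightest cluster by its mean was used (20738 rows). No filter or further normalization was applied.

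Rows were fitted with limma 3.58.1 in R 4.3.3 (lmFit, eBayes, 3 group means over 14 arrays, 11 residual and 3.40 prior degrees of freedom), adjusted by Benjamini-Hochberg over all rows, with a threshold of 0.05. The fit was tested on simulated data. SE is the moderated standard error. Array medians lay between 6.44 and 6.54, and with arrays their number limits the precision. No pair of arrays shared over 50 percent of its values.

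The members and lists were chosen with earlier results of these data known. The text names all members, up to 4 genes of each role list per comparison by smallest p, the 5 genes most like Sytl4, and Pdx1, Ikbkb, Ins2 and Gcg. Same-number arrays did not pair (correlations of deviations −0.386 to 0.355, 2 of 13 over 0.1), so no pairing was used. Alternatives were 2 other normalizations, other variance models and row sets, array weights, a replicate block, an acinar covariate, and arrays left out.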

Additional observations from a re-analysis of the deposited data

Results flagged for a closer look

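Within the 27 sets of one member in one group, 5 readings lay far from the rest by Dixon's test, where chance gives about 1 in 20 for a single set. The sets are not independent, because members share arrays. With group means removed, r was 0.83 for Syt7 with Unc13a and 0.91 for Rab27a with Rims2. The count of 5 is thus no measure of an excess over chance. On Pdx-1+/- array 4, Syt7 read 7.42 against 8.15 to 8.16 on the other 3 arrays, and Unc13a 6.76 against 7.70 to 7.80. On IKK2-CA array 4, Rab27a read 9.25 against 8.72 to 8.81 on the other 4, and Rims2 7.04 against 6.43 to 6.45. On control array 3, Stx1a read 6.19 against 6.37 to 6.44. Pdx-1+/- array 4 and control array 3 also had the highest intestinal marker means (2.60 and 1.26), and IKK2-CA array 4 had the highest β-cell marker mean of its group (0.08). The part of these in the readings was not tested.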

How the results depend on the processing

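In IKK2-CA against control, 2 of 8 tested partners passed. The count was 1 when only these 2 groups were fitted, where Rab3a was lost (adjusted p = 0.0583), 1 with the replicate block, 6 with array weights, 0 without Pdx-1+/- array 4, IKK2-CA array 5 and control array 3, and 0 to 4 with 1 array left out. Of the 114 other genes 8 passed there, against 5 when every row of the value table was tested, 3 with the replicate block, 28 with array weights, 2 without those 3 arrays, and 2 to 20 with 1 array left out. In Pdx-1+/- against control the count of these genes was 1, and 3 with array weights. Calls over all rows moved in these fits too. In IKK2-CA against control they went from 453 to 1406 with array weights and to 180 without those 3 arrays. They were 238 when only these 2 groups were fitted, and between 120 and 990 with 1 array left out. Testing all 35556 rows gave 315 calls. In Pdx-1+/- against control array weights gave 71, against 18. The changed counts are thus no measure of a change in these genes alone. Under the block Rab27a had adjusted p = 0.0504 and Rab3a 0.0466. Over all rows the block gave 200 calls, against 453, in IKK2-CA against control, 9 against 18 in Pdx-1+/- against control, and 9 against 20 in IKK2-CA against Pdx-1+/-. Of 14 arrays, 2 correlated best with an array of their own number. The number is shared only as a label, so a call lost under the block is no measure of a weaker effect.

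Directions turned for 3 differences, none of which had passed. Stx1a in Pdx-1+/- against control was 0.01 with median centring, quantile normalization or without control array 5, 0.00 without Pdx-1+/- array 4 alone or with IKK2-CA array 5, and 0.08 without Pdx-1+/- array 3, in a range of −0.08 to 0.08 with 1 array left out. Snap25 in that comparison was −0.19 with all arrays and 0.05 without the 3 arrays. Unc13a in IKK2-CA against Pdx-1+/- ranged from −0.31 to 0.04 with 1 array left out. Sytl4 kept its sign in all fits, between −2.20 and −1.95 in IKK2-CA against control with 1 array left out. The causes were not tested. Precision is limited by how many arrays each group has, and for the dimmer rows by array background.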
